A study of Canis lupus familiaris with 8 samples.

Results

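The effect of sorting stem-like cells was examined across 2 related canine mammary tumour lines by setting all 4 sorted samples against all 4 unsorted samples, with the line of origin as a term in the model. All 8 of the 8 samples of the series entered the comparison, chosen by their labels alone, and the miRNAs considered were the 454 whose array name carries the dog prefix. CMT-Star (Star) is a doxorubicin-resistant line, obtained from CMT-Stylo (Stylo), which the series title calls a mammary adenocarcinoma line, by raising the drug dose over months until the cells withstood 100 nM. Cells positive for CD44 and aldehyde dehydrogenase activity and with little or no CD24 were sorted from each line and are called CSC, as in the labels. The groups were Star CSC, Star parent, Stylo CSC and Stylo parent, with 2 samples each, all grown in DMEM with 10% FBS at 5% CO2 and 37 °C. Both Star groups are labelled as doxorubicin treated and both Stylo groups as not treated, so line and drug exposure cannot be told apart. The sorted cells passed through a flow cytometer, and no sorted but marker-negative cells were among the samples, so the handling of a sort and the marker profile cannot be told apart either. The labels do not say whether replicates were separate cultures, so the p-values reflect only how far these samples varied, and that variation may be technical.

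MiRNAs are short RNAs that guide Argonaute proteins to matching sites in messenger RNAs, mostly through a short seed near their 5′ end, and so lower the output of many targets at once. In mammary tissue and its tumours some of them are tied to differentiation, such as the let-7 family, which silences RAS and HMGA2 and is typically scarce in progenitor cells. Others are tied to the response to DNA damage, such as miR-34a, or to growth, such as miR-21. CD44-high, CD24-low and aldehyde dehydrogenase-positive cells are the fraction of breast tumours that was first described as enriched for tumour-initiating cells.

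Levels are given as scaled log2 totals of Cy3 fluorescence per miRNA, and a change is the CSC mean minus the parent mean on that scale. Of the 454 miRNAs, 377 were detected in no sample. The remaining 77 include 56 that were detected in every sample of at least 1 group, and these 56 were tested. Of these, 22 were detected in all 8 samples. An undetected miRNA was placed at a common floor of 1.51, as was a detected miRNA whose scaled total lay below it. The scanner file of Stylo parent replicate 2 is identical to that of replicate 1. The deposited values of Stylo CSC replicate 1 and Stylo parent replicate 2 do not follow their scanner files. In them 420 and 417 of 475 entries matched, but most entries are undetected in both sources, so the matches say little about detected miRNAs. Stylo CSC replicate 1 had 30 detected in the deposited values and 38 in its file, with 23 in both. Stylo parent replicate 2 had 25 and 48, with 25 in both. These 2 samples also had the fewest detected miRNAs. The results therefore use the deposited values of all 8 samples. They are set beside the 6 samples whose values do follow their files and beside the scanner files. These 6 are the Star samples, Stylo CSC replicate 2 and Stylo parent replicate 1. The scanner arrays of slide 1 come from the same 6 samples, and the 7 distinct scanner arrays add only Stylo CSC replicate 1. Stylo thus has 1 parent array in each set and 1 CSC array in the first 2, so these sets are not separate evidence. The epithelial miRNAs miR-200c, miR-141, miR-205 and miR-203 were detected in no sample. Of 10 epithelial miRNAs, 2 were detected (miR-183 and miR-182, both in Star CSC alone), with summed linear totals of 0 to 10.9 in CSC and 0 in parent samples. Of the neural list miR-138a alone was detected, with summed linear totals of 0 to 16.1 in CSC and 0 in parent samples, and miR-124 and miR-9 were at 0. Muscle, endothelial, liver and mesenchymal miRNAs were detected in no sample.

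Sorted samples were brighter as a whole in Star. The 75th percentile of totals, taken over the 22 miRNAs detected everywhere, had log2 values of 7.04 and 6.88 in Star CSC, against 6.45 and 6.41 in Star parent. It was 6.26 and 6.15 in Stylo CSC, against 6.04 and 6.16 in Stylo parent. The groups did not overlap in Star and overlapped in Stylo. Over both lines the difference was 0.31 (exact permutation test within lines, two-sided, p = 0.111, where 0.0556 is the smallest p that 36 arrangements allow). The number of detected miRNAs was 72 and 51 in Star CSC, 52 and 54 in Star parent, 30 and 60 in Stylo CSC, and 48 and 25 in Stylo parent, with overlap in both lines. The difference over both lines was 8.5 (same exact permutation test, p = 0.444). The levels below are scaled to this percentile, and the change without scaling is given beside each miRNA that the results turn on. The median change of the 22 miRNAs measured everywhere was 0.09 with scaling and 0.41 without it.

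**Figure D1:**
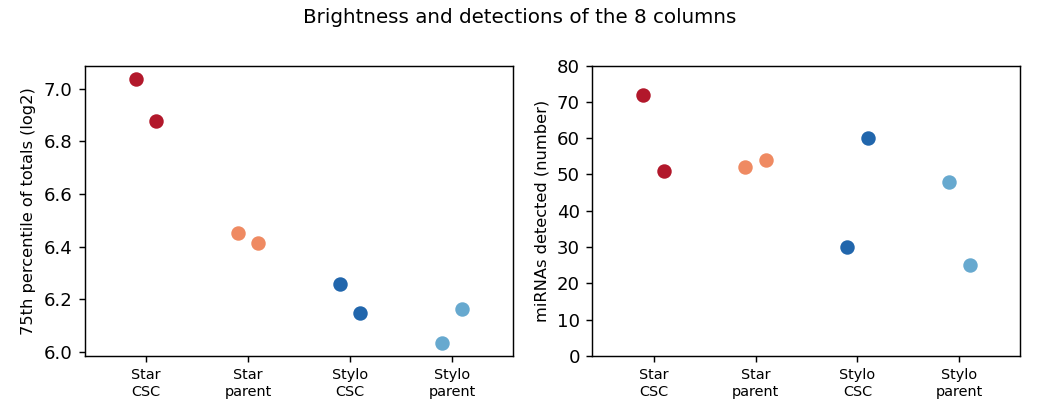
Brightness (left, log2 of the 75th percentile of totals) and number of detected miRNAs (right, of 454) in each of the 8 samples, by group, with 1 point per sample. Star CSC lie above Star parent in brightness, while the Stylo groups overlap.

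Across both lines, let-7a and let-7f rose in sorted cells, and miR-193a and miR-125b fell. These 4 of 56 miRNAs passed in the pooled comparison (7.14% of those tested; 2 higher, 3.57%, and 2 lower, 3.57%; limma, adjusted p under 0.05, with 14 at an unadjusted p under 0.05), and all 4 had the same sign in both lines. Without regard to a test, 16 of the 56 were higher in CSC in both lines, 13 were lower in both, and 27 did not share a sign. Among the 22 detected in all samples these counts were 7, 6 and 9. The changes in Star and in Stylo correlated weakly across miRNAs, at r = 0.04 over the 56 and r = 0.23 over the 22. Both lines were scaled together, and miRNAs are not independent replicates. In 6 miRNAs all CSC lay above all parent samples within each line (10.7% of those tested), and in 5 all CSC lay below them (8.93%). Without scaling, 6 miRNAs passed and all were higher (10.7%), and 0 were lower by limma, with 2 at an unadjusted p under 0.05. Let-7a and let-7f were the 2 miRNAs that passed on both scales. The 4 calls rested on single samples: none passed without Star parent replicate 1, Star parent replicate 2, Stylo CSC replicate 1, Stylo parent replicate 1 or Stylo parent replicate 2, with 11 to 13 at an unadjusted p under 0.05, and 1 passed without Stylo CSC replicate 2. Without either Star CSC replicate 4 passed, of which 3 were among these.

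**Figure D2:**
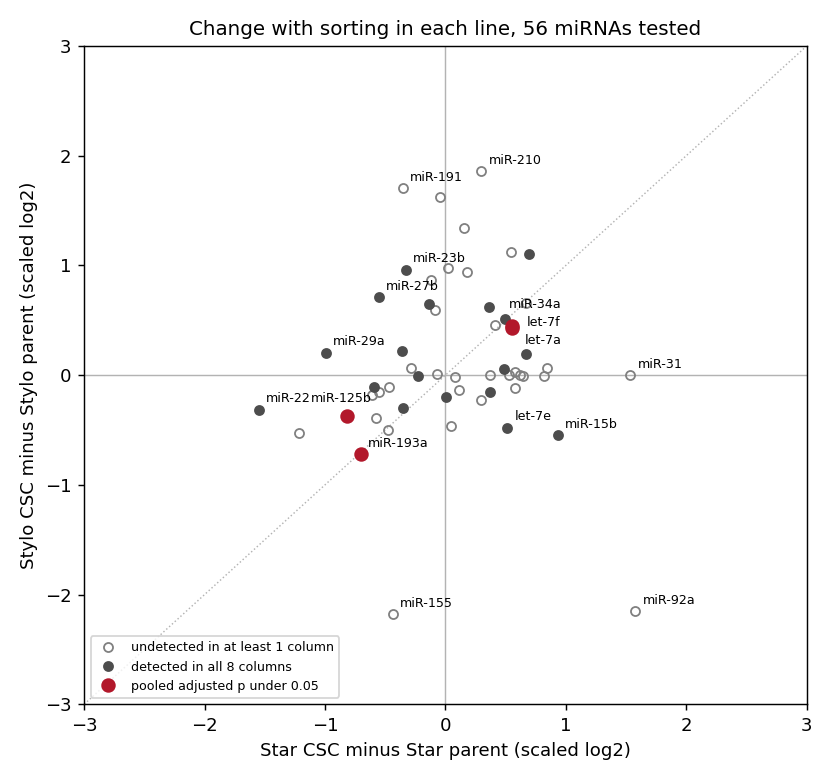
Change with sorting (CSC minus parent, scaled log2 total) in Star on the x axis and in Stylo on the y axis for the 56 miRNAs tested, with 1 point per miRNA. Filled points were detected in all 8 samples, red points passed in the pooled comparison, and the dotted line marks equal change. Let-7a, let-7f, miR-193a and miR-125b lie in the quadrants of shared sign, and miR-15b, let-7e, miR-23b, miR-27b, miR-29a and miR-92a in those of opposite sign.

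Among the let-7 miRNAs, let-7a had levels of 8.82 and 8.83 in Star CSC, against 8.29 and 8.26 in Star parent. It had 9.03 and 8.94 in Stylo CSC, against 8.52 and 8.59 in Stylo parent. Every CSC sample lay above every parent sample. The pooled change was 0.49 ± 0.10 (SE, n = 4 and 4; adjusted p = 0.0486), a 1.40-fold rise, with 0.55 in Star and 0.43 in Stylo. Without scaling it was 0.80 ± 0.18 (adjusted p = 0.0282). Let-7f had levels of 6.32 and 6.41 in Star CSC, against 5.82 and 5.80 in Star parent. Its levels were 6.27 and 6.27 in Stylo CSC, against 5.92 and 5.73 in Stylo parent, again with no overlap between sorted and parent samples. The pooled change was 0.50 ± 0.11 (adjusted p = 0.0486), with 0.55 in Star and 0.45 in Stylo, and 0.81 ± 0.18 without scaling (adjusted p = 0.0249). In RNA from mixed cells a lower or higher share of a cell type and less or more RNA per cell cannot be told apart.

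The other let-7 members were less alike between the lines. Let-7c lay above the parent in both lines, at 6.46 and 6.55 in Star CSC, against 5.86 and 5.81 in Star parent, and at 6.35 and 6.38 in Stylo CSC, against 6.19 and 6.15 in Stylo parent. Its pooled change of 0.43 ± 0.14 did not pass (adjusted p = 0.0868), and the change in Star exceeded that in Stylo by 0.48 ± 0.09 (adjusted p = 0.0119 for the difference). In the 6 samples let-7c was at −0.09 in Stylo. Let-7e changed in opposite directions, by 0.51 in Star and −0.48 in Stylo (pooled 0.02 ± 0.22, adjusted p = 0.957), and let-7b by 0.37 and −0.16 (pooled 0.10 ± 0.14, adjusted p = 0.67). Let-7g was undetected in Stylo CSC replicate 1 and in Stylo parent replicate 2 and had a pooled change of 0.45 ± 0.44 (adjusted p = 0.574). Of the 6 measured let-7 miRNAs, 2 rose and none fell, against 2 (3.57%) that rose and 2 (3.57%) that fell among all 56. Of the 6, 4 were higher in both lines, against 16 of the 56, and the median change was 0.44, against 0.21 over all 56. In the 6 samples and on the scanner files none of the 6 passed. These sequences differ by few bases, so the array may not separate them fully and the members are uncertain singly.

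The rise of let-7a and let-7f depended on how Stylo samples were scaled. With the 40 miRNAs detected in all of the 6 samples that follow their scanner files as the basis of the percentile, let-7a changed by 0.54 in Star and 0.13 in Stylo (pooled 0.40 ± 0.14, adjusted p = 0.168), and let-7f by 0.54 and 0.07 (0.38 ± 0.15, adjusted p = 0.205). In that set Stylo CSC replicate 2 was brighter than Stylo parent replicate 1 by 0.40, against 0.11 when 22 miRNAs set the percentile.

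MiR-34a, which p53 induces and which restrains the cell cycle, had levels of 5.78 and 5.71 in Star CSC, against 5.27 and 5.22 in Star parent. It had 5.25 and 5.40 in Stylo CSC, against 4.98 and 4.65 in Stylo parent. The samples did not overlap within either line. The changes were 0.50 in Star and 0.51 in Stylo (difference −0.02 ± 0.19, adjusted p = 0.989), and the pooled change of 0.50 ± 0.12 fell short of the threshold (adjusted p = 0.0581). Without scaling it passed, at 0.82 ± 0.17 (adjusted p = 0.0249), with 1.02 in Star and 0.62 in Stylo. The lines were less alike in the other sets of values, which hold few Stylo samples. In the 6 samples miR-34a changed by 0.48 in Star and 0.13 in Stylo (difference 0.35). On the 7 scanner arrays it changed by 0.47 and −0.71 (difference 1.18).

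MiR-378, which lies in an intron of PPARGC1B in mammals and acts on energy metabolism, had levels of 4.32 and 4.27 in Star CSC, against 3.84 and 4.03 in Star parent. It had 3.98 and 4.36 in Stylo CSC, against 3.53 and 3.57 in Stylo parent. Sorted and parent samples were apart within each line, with a pooled change of 0.49 ± 0.14 (adjusted p = 0.0829), and 0.81 ± 0.17 without scaling (adjusted p = 0.0249). In the samples that follow their files miR-378 changed by 0.35 in Star and 0.55 in Stylo. On the slide 1 scanner arrays it changed by 0.23 and 0.12, but over all distinct scanner arrays by 0.23 and −0.41. MiR-103, which targets Dicer, had levels of 4.21 and 3.92 in Star CSC, against 3.55 and 3.49 in Star parent. It had 3.53 and 3.31 in Stylo CSC, against 3.07 in Stylo parent replicate 1 and the floor in replicate 2. The pooled change was 0.83 ± 0.35 (adjusted p = 0.199), and 1.03 ± 0.25 without scaling (adjusted p = 0.0298). The rise of miR-103 in Stylo was absent from the other sets of values, which hold few Stylo samples. In the samples that follow their files miR-103 changed by 0.53 in Star and −0.05 in Stylo. On the slide 1 scanner arrays it changed by 0.42 and −0.08, and over all distinct scanner arrays by 0.42 and −0.07. Its paralog miR-107 was detected in Star alone, with a change of 0.52 there and a pooled change of 0.26 ± 0.14 (adjusted p = 0.325).

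**Figure D3:**
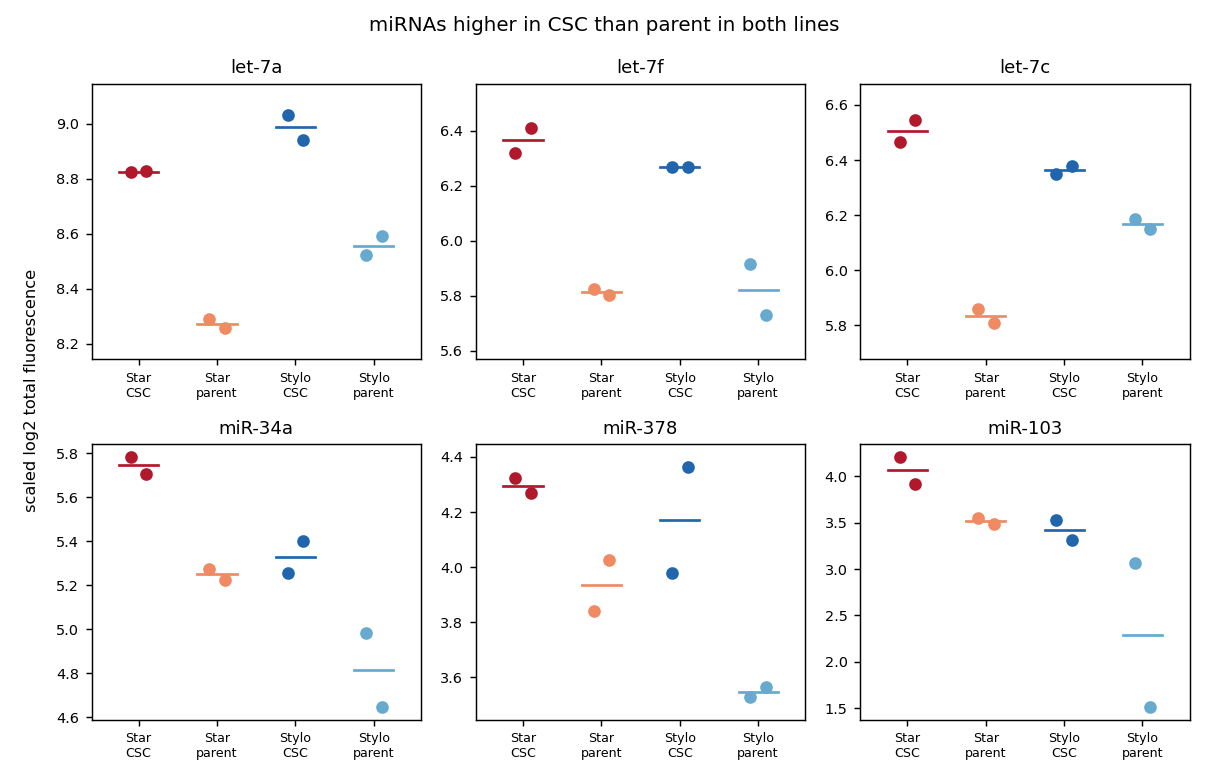
Scaled log2 totals of let-7a, let-7f, let-7c, miR-34a, miR-378 and miR-103 in each sample (points) with the mean of each group (bars), Star at left and Stylo at right in each panel. In all 6 panels both CSC samples lie above both parent samples of the same line, and the lowest point of miR-103 is the floor of 1.51.

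MiR-210, which hypoxia induces, was detected in all 4 CSC samples and in the Star parent samples but not in Stylo parent. Its levels were 3.53 and 3.03 in Star CSC, against 2.89 and 3.07 in Star parent, with overlap. They were 3.30 and 3.44 in Stylo CSC, at least 2.21-fold above Stylo parent. This is the bound between the CSC mean and the lowest detected totals of the undetected group. The pooled change of 1.08 ± 0.34 did not pass (adjusted p = 0.0868), while 1.13 ± 0.22 without scaling did (adjusted p = 0.0249). Both contain a distance to the floor. In the 6 samples that follow their files miR-210 changed by 0.28 in Star and 1.95 in Stylo, where the parent was again undetected. On the slide 1 scanner arrays it changed by 0.09 and 0.87, and over all distinct scanner arrays by 0.09 and 0.39. MiR-21, a widely expressed growth-promoting miRNA, had 5.00 and 5.00 in Star CSC, against 4.58 and 4.45 in Star parent, but 4.82 and 4.79 in Stylo CSC, against 4.80 and 4.70 in Stylo parent. Its pooled change was 0.27 ± 0.13 (adjusted p = 0.308).

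On the lower side, miR-193a, described as a tumour suppressor in several human cancers, had levels of 3.07 and 3.08 in Star CSC, against 3.81 and 3.74 in Star parent. It had 3.23 and 3.58 in Stylo CSC, against 4.08 and 4.17 in Stylo parent. All CSC samples lay below all parent samples. The pooled change was −0.71 ± 0.12 (n = 4 and 4; adjusted p = 0.0432), with −0.70 in Star and −0.72 in Stylo, a difference of 0.02 ± 0.18 (adjusted p = 0.989). Without scaling it was −0.40 ± 0.18 (adjusted p = 0.155), with −0.18 in Star and −0.62 in Stylo, and the samples still did not overlap within either line. In the 6 samples that follow their files it was −0.74, and −0.82 on the slide 1 scanner arrays of the same 6 samples. After normexp on the scanner files it was −0.29 ± 0.07 and did not pass (adjusted p = 0.0554), and after quantile normalization −1.92 ± 0.24 (adjusted p = 0.0126).

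MiR-125b, which represses several genes of the p53 network and ERBB2, had levels of 6.46 and 6.43 in Star CSC, against 7.30 and 7.22 in Star parent. It had 6.96 and 6.87 in Stylo CSC, against 7.25 and 7.32 in Stylo parent. The CSC samples lay below the parent samples throughout, by more in Star (−0.82) than in Stylo (−0.37), and this difference of −0.44 ± 0.10 passed (adjusted p = 0.0217). It did not pass without scaling (−0.29 in Star and −0.27 in Stylo, difference −0.02, adjusted p = 0.954), in the 6 samples that follow their files (−0.16, adjusted p = 0.0997) or on the 7 scanner arrays (0.20, adjusted p = 0.728). The pooled change was −0.59 ± 0.13 (adjusted p = 0.0486). Without scaling it was −0.28 ± 0.16 (adjusted p = 0.214), in the 6 samples −0.78, and on the slide 1 arrays of the same samples −0.82.

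MiR-22, a broadly expressed miRNA with targets that include TET enzymes, had the most negative change among the 22 miRNAs detected in all samples. Its levels were 3.32 and 3.21 in Star CSC, against 4.90 and 4.72 in Star parent. They were 3.77 and 3.80 in Stylo CSC, against 4.25 and 3.96 in Stylo parent. No CSC sample reached a parent sample, but the change was −1.55 in Star and −0.32 in Stylo (difference −1.23 ± 0.18, adjusted p = 0.00698). With lines this unequal the pooled change of −0.93 ± 0.27 did not pass (adjusted p = 0.0829). On slide 1 the pooled change was −1.35, and without scaling it was −0.62 ± 0.22 (adjusted p = 0.101).

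MiR-155, which promotes tumour growth and is made by activated lymphocytes and macrophages, had 1.56 and the floor in Star CSC, against 1.98 and 1.97 in Star parent. It lay at the floor in both Stylo CSC samples, against 3.67 and 3.71 in Stylo parent, and was thus at least 2.32-fold lower there. The pooled change was −1.31 ± 0.35 (adjusted p = 0.0818), the direction held in both lines, and its size differed (1.74 ± 0.08, Star minus Stylo, adjusted p = 0.00023). It was undetected in 3 of the 4 CSC samples, so this error understates the spread. Without scaling the Star samples overlapped (−0.04).

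MiR-494 of the imprinted DLK1-DIO3 region had 6.11 and 6.15 in Star CSC, against 6.47 and 6.50 in Star parent, and 6.42 and 6.44 in Stylo CSC, against 6.76 and 6.70 in Stylo parent. The samples were apart in both lines with like changes of −0.36 in Star and −0.30 in Stylo. The pooled change was −0.33 ± 0.10 (adjusted p = 0.0868). Without scaling it was −0.02 ± 0.16 (adjusted p = 0.941), and the Star samples were apart in the other direction, at 0.17. In the 6 samples that follow their files miR-494 changed by −0.37 in Star and −0.61 in Stylo. On the slide 1 scanner arrays it changed by −0.38 and −0.70, but over all distinct scanner arrays by −0.38 and 0.70. MiR-221, which lowers the cell-cycle inhibitor p27, had 2.04 and 1.99 in Star CSC, against 2.82 and 2.40 in Star parent, and overlapped in Stylo, at 2.70 and 2.26 in CSC, against 2.50 and 2.67 in the parent (pooled −0.35 ± 0.19, adjusted p = 0.325). Its neighbour miR-222 had a pooled change of 0.56 ± 0.53 (adjusted p = 0.574), with Stylo parent replicate 2 at the floor.

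**Figure D4:**
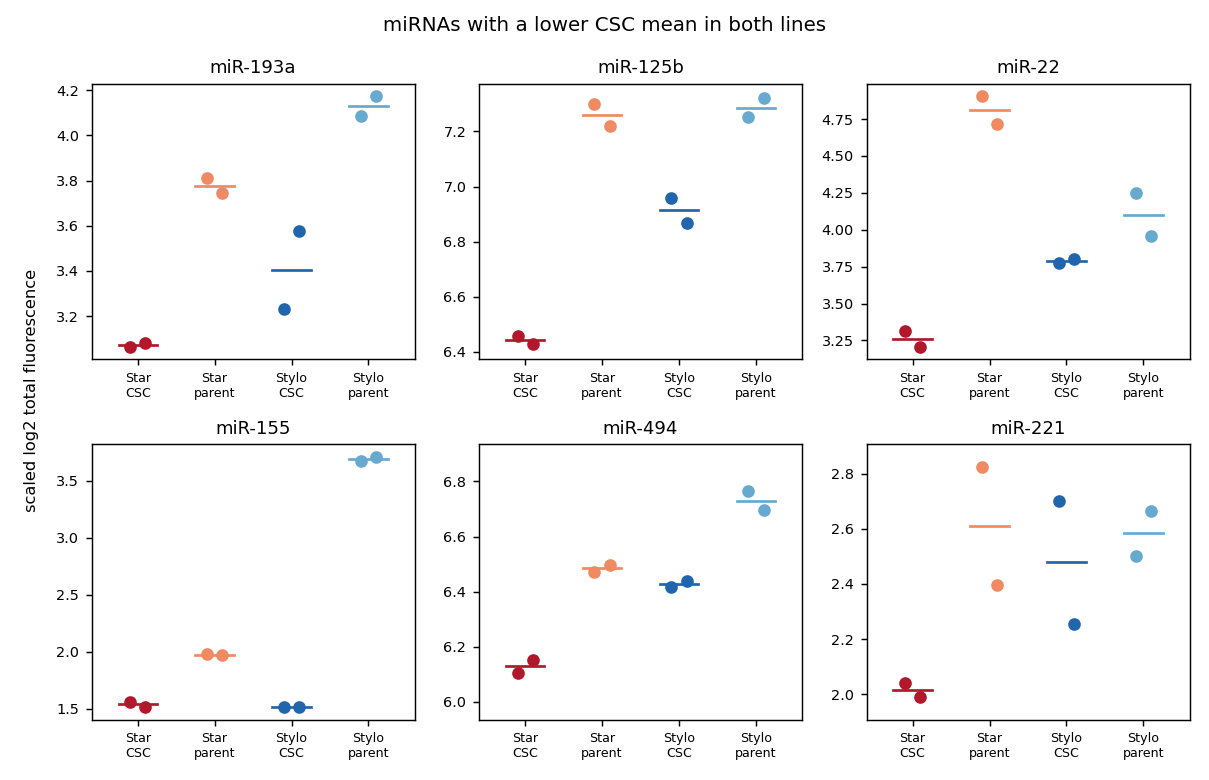
Scaled log2 totals of miR-193a, miR-125b, miR-22, miR-155, miR-494 and miR-221 in each sample (points) with the mean of each group (bars), Star at left and Stylo at right in each panel. CSC samples lie below parent samples of the same line in every panel but that of miR-221, where Stylo overlaps, and the points of miR-155 at 1.51 are the floor.

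Of the 6 miRNAs that separated upward in both lines, 4 were higher in both lines in the 6 samples that follow their files and 3 on the slide 1 scanner arrays. Of the 5 that separated downward, the counts were 5 and 4. Both groups of miRNAs were picked on samples that these sets share, so these counts are descriptions only. The same shares over all tested miRNAs are not given. The median pooled change over all tested miRNAs was 0.22 in the samples that follow their files (68 tested). It was 0.02 on slide 1 (50 tested) and −0.02 on the 7 scanner arrays (46 tested). Over all 7 distinct scanner arrays, which include the array of Stylo CSC replicate 1 on another slide, 1 of the 6 was higher in both lines and 3 of the 5 were lower. In that set 4 miRNAs passed, all lower in CSC. They were miR-22 (−1.46 ± 0.24, adjusted p = 0.0377), miR-193a (−0.93 ± 0.17, adjusted p = 0.0377), miR-125b (−0.92 ± 0.16, adjusted p = 0.0377) and miR-221 (−0.67 ± 0.13, adjusted p = 0.0413). Let-7a and let-7f did not pass there (0.19 ± 0.26, adjusted p = 0.772, and 0.33 ± 0.13, adjusted p = 0.27), and let-7a was at −0.31 in Stylo. In these 3 sets miR-193a ranged from −0.79 to −0.72 in Star and from −1.14 to −0.79 in Stylo, and miR-125b from −0.84 to −0.83 and from −1.05 to −0.67.

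**Figure D5:**
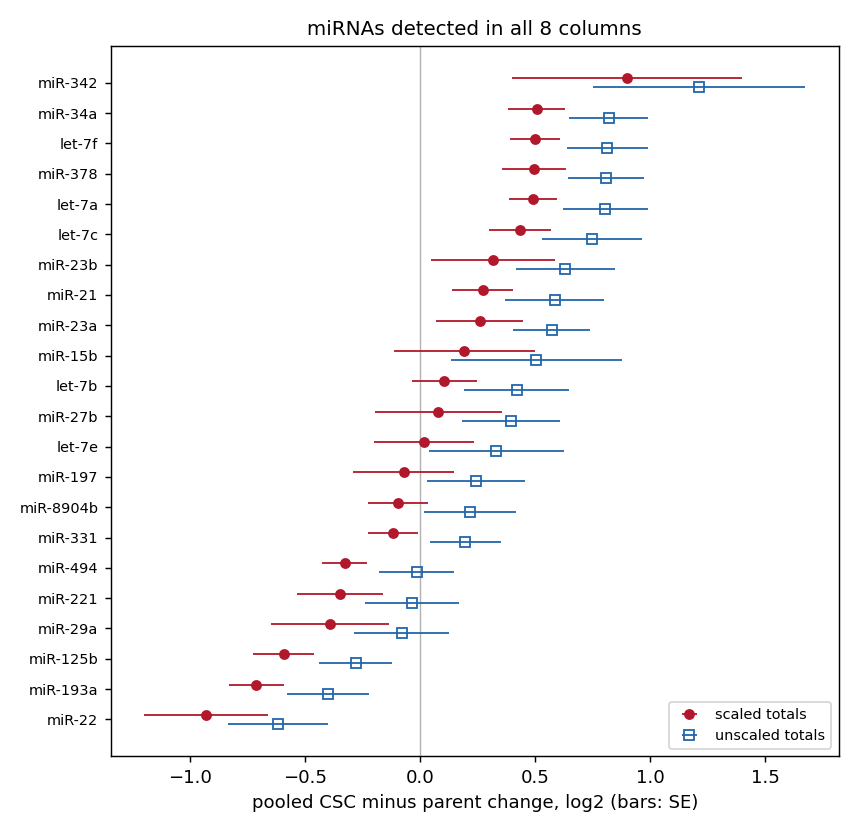
Pooled change (CSC minus parent, log2, with SE) of the 22 miRNAs detected in all 8 samples, from scaled totals (filled circles) and unscaled totals (open squares). Without scaling every value lies 0.31 higher, and miR-22, miR-193a and miR-125b are the 3 lowest on that scale.

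The change with sorting differed between the lines in 19 of 56 miRNAs (33.9%; limma, adjusted p under 0.05 for the interaction), 10 with the more positive change in Star and 9 in Stylo. For miR-31, miR-151 and miR-107 every Stylo sample lay at the floor, so no Stylo change was measured. MiR-31 and miR-151 were tested only because Star CSC detected them. MiR-155, miR-210 and miR-99b also had a whole Stylo group at the floor, and for these 6 the errors understate the spread. Without scaling 15 of the 19 passed, and miR-125b, miR-23a, miR-210 and miR-99b did not. On the 7 scanner arrays 0 passed by limma, with 8 at an unadjusted p under 0.05. MiR-15b, which targets BCL2, was higher in Star CSC, at 5.22 and 5.25, against 4.33 and 4.27 in Star parent. It was lower in Stylo CSC, at 4.79 and 4.84, against 5.41 and 5.32 in Stylo parent. The samples were apart in both lines in opposite directions (difference 1.48 ± 0.09, adjusted p = 0.000385 for the difference; pooled 0.19 ± 0.31, adjusted p = 0.717). Its cluster partner miR-16 changed by 0.58 in Star and −0.12 in Stylo, where it was undetected in CSC replicate 1 and parent replicate 2. MiR-92a of the miR-17 clusters had 4.04 and 3.83 in Star CSC, against 2.34 and 2.37 in Star parent. It had the floor and 2.98 in Stylo CSC, against 4.68 and 4.12 in Stylo parent, a difference between lines of 3.73 ± 0.72 (adjusted p = 0.0145).

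The miR-23 and miR-27 cluster ran the other way. MiR-23b had 6.93 and 6.95 in Star CSC, against 7.28 and 7.25 in Star parent, and 7.45 and 7.44 in Stylo CSC, against 6.50 and 6.47 in Stylo parent (difference −1.29 ± 0.07, adjusted p = 0.000385). MiR-27b changed by −0.55 in Star and 0.71 in Stylo (difference −1.26 ± 0.18, adjusted p = 0.00698), and miR-23a by −0.14 and 0.65 (difference −0.79 ± 0.14, adjusted p = 0.0103). Without scaling the Star changes of miR-23b and miR-23a were 0.20 and 0.39, so their sign in Star depends on the scaling. The difference between lines was then −0.86 for miR-23b (adjusted p = 0.00661), while that of miR-23a was −0.36 and did not pass (adjusted p = 0.162). On the 7 scanner arrays miR-23b fell in both lines (−0.35 in Star, −0.42 in Stylo), as did miR-27b (−0.58 and −0.87), while miR-23a changed by −0.16 and 0.18. In the 6 samples the signs stayed opposite, with miR-23b at −0.34 and 0.65, miR-27b at −0.57 and 0.46, and miR-23a at −0.15 and 0.20. MiR-29a, which targets collagen transcripts, had 3.94 and 3.92 in Star CSC, against 4.95 and 4.88 in Star parent, but 4.03 and 3.97 in Stylo CSC, against 3.86 and 3.72 in Stylo parent (difference −1.20 ± 0.10, adjusted p = 0.001). In the 6 samples its Stylo change was −0.18.

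MiR-31, which restrains the spread of human breast cancer cells in mice, was measured in Star CSC alone, at 3.16 and 2.94, and lay at the floor in all 6 other samples. It was at least 2.90-fold above Star parent. Its pooled change of 0.77 ± 0.32 rests on Star CSC alone and did not pass (adjusted p = 0.199). MiR-151 was likewise detected only in Star CSC (2.05 and 2.21). MiR-191 (−0.35 in Star, 1.70 in Stylo) and miR-99b (−0.05 and 1.63) had their change in Stylo, where both parent samples lacked detectable miR-99b, which was at least 1.88-fold higher in CSC, and 1 parent sample lacked miR-191. Without scaling their Star changes were 0.17 (miR-191) and 0.48 (miR-99b), so the sign in Star depends on the scaling.

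By function, the list of miRNAs tied to breast cancer stem cells had 13 tested members of 20 on the array, of which 1 rose (let-7a) and none fell, with a median change of 0.23. Among all 56, 3.57% rose and 3.57% fell. The tumour-suppressor list had 7 tested members, of which 2 fell (miR-193a and miR-125b) and none rose, against 2 of all 56 (3.57%) that fell. These are the same 2 miRNAs. The list has no let-7 miRNA among its tested members, and only let-7a and let-7f rose, so that none rose follows from its membership. The median of this list was −0.39. Without scaling 1 member rose (miR-34a) and none fell, with a median of −0.08. The oncogenic list had 7 tested members, none of which passed, with a median of 0.26. The median over all 56 miRNAs was 0.21, or 0.44 without scaling. Members overlap between the lists. In the remaining families none passed: the miR-17 and related clusters had 5 tested members (median 0.03), with miR-25 at 0.30 and miR-93 at 0.25, and miR-30d was at 0.50 ± 0.43 (adjusted p = 0.546).

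Of the haematopoietic list, miR-223 and miR-486 were detected. MiR-223 had 2.84 and 2.96 in Star CSC, against 3.50 and 3.44 in Star parent, and was undetected in Stylo CSC replicate 1 and Stylo parent replicate 2 (pooled −0.48 ± 0.65, adjusted p = 0.67). The summed linear totals of that list were 0 to 17.3 in CSC and 0 to 13.8 in parent samples, and miR-142 and miR-451 were at 0. The part of other cells in the fall of miR-155 was not tested.

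Some of the miRNAs that moved apart are encoded side by side. In RefSeq's gene table of the UU_Cfam_GSD_1.0 assembly, in which 55 of the 56 tested miRNAs could be matched by name, a let-7a gene and a miR-125b gene neighbour each other on chromosome 5, and let-7c and miR-125b do on chromosome 31. Let-7a rose and miR-125b fell in the pooled comparison, and let-7c had a value of 0.43. MiR-193a, which fell, neighbours miR-365 on chromosome 9, whose change was −0.03 ± 0.75 (adjusted p = 0.972) with 1 Stylo CSC and 1 Stylo parent sample at the floor. By contrast miR-23b and miR-27b, neighbours on chromosome 1, changed in the same direction within each line with scaling. Without scaling the Star changes were 0.20 for miR-23b and −0.03 for miR-27b, and the Stylo changes 1.06 and 0.81. A neighbourhood in this table is within 100000 bases, and let-7a and miR-125b are each made from more than a single gene, so the array total does not say which copy changed.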

How the data were processed

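Total RNA (100 ng, RNA integrity number of 7 or more) was Cy3-labelled for 1-colour Agilent miRNA arrays, per the labels' protocols. The scanner files hold spot intensity values measured and background-subtracted by Agilent Feature Extraction 11.5.1.1, per the file headers, with a total per miRNA set to 0.1 where none is detected. The deposited value table holds log2 totals. Its column shift and row centring are not stated, and were found by setting it against the scanner totals (tolerance 0.01).

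The shift of each column was removed by subtracting its Blank row, row levels were restored from the scanner totals, and each column was scaled to its 75th percentile over 22 miRNAs detected everywhere. A common floor was set at a total of 2.85 (log2 1.51). Without the scaling step, the values are those after the Blank subtraction and the restored row levels, with a common floor at log2 1.72. MiRNAs detected in every sample of at least 1 group were tested with limma 3.58.1 in R 4.3.3, two-sided, with line as a term (5 residual degrees of freedom). The difference between lines came from a fit of 4 group means (4 residual degrees of freedom). Benjamini-Hochberg adjustment covered the 56 miRNAs, with a threshold of 0.05. The fit was tested on simulated data with normal noise. These had no floor, no undetected values and no difference of the change between lines, so the simulation does not cover miRNAs with those traits.

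On scanner files, spots were averaged per probe and probes summed per miRNA, with identical files counted once. These files have no mean signal, so normexp (offset 50) used the median signal. Errors are standard errors from limma. Precision is limited by having 8 arrays, and no spot was saturated. Samples with the same number were checked for pairing: the deviations from group means correlated at r = −0.767 in Star and 0.766 in Stylo, so the numbers were not taken as pairs.

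Named miRNAs were those past the pooled threshold with the same sign in both lines (at most 15 rises and 15 falls), the 5 smallest p-values of the difference between lines, up to 3 members per list by pooled p, the 10 smallest pooled p-values because under 5 passed, and miR-21, miR-34a, let-7a, miR-210, miR-221, miR-31, miR-155 and miR-200c. Let-7b, let-7g, miR-151, miR-191 and miR-365 were named after their values were seen. The comparison, lists and members were chosen with earlier results of these data known. Sequences of the miRNAs were not used here.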

Additional observations from a re-analysis of the deposited data

Results flagged for a closer look

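Single samples stood apart from the other 3 CSC or parent samples by Dixon's test, for 9 of 72 groups considered. The 72 include the parent groups of miR-31, miR-151 and miR-183, which lay wholly at the floor and could not be checked. Every flag involved the floor, and each group mixed both lines, so the test gives no rate to expect by chance. For miR-155 and miR-183 the other 3 CSC samples were at the floor, which fixed the flag in advance. The highest CSC level of miR-155 was 1.56 and that of miR-183 was 2.25, both in Star CSC replicate 1. The lowest CSC level of miR-93, miR-25 and miR-365, in Stylo CSC replicate 1, and the lowest parent level of miR-30d, miR-222, let-7g and miR-365, in Stylo parent replicate 2, were at the floor of 1.51.

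The change with sorting differed between lines by the interaction test in 19 miRNAs, given here as the Star change minus the Stylo change. The difference was positive for miR-92a (3.73), miR-155 (1.74), miR-31 (1.54), miR-15b (1.48), let-7e (0.99), miR-151 (0.62), let-7b (0.53), miR-107 (0.52), let-7c (0.48) and miR-21 (0.43). It was negative for miR-191 (−2.05), miR-99b (−1.67), miR-210 (−1.56), miR-23b (−1.29), miR-27b (−1.26), miR-22 (−1.23), miR-29a (−1.20), miR-23a (−0.79) and miR-125b (−0.44). MiR-31, miR-151 and miR-107 had every Stylo sample at the floor. MiR-155, miR-210 and miR-99b had a whole Stylo group there.

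Of 21 miRNAs detected but not tested, 17 were detected in CSC samples only and 1 in parent samples only. MiR-138a, miR-328, miR-449b, miR-486, miR-8799g and miR-8845 were each detected in 2 CSC samples, Star CSC replicate 1 and Stylo CSC replicate 2, and in 0 parent samples, with log2 totals of 1.95 to 4.01. These samples also had the most detected miRNAs, 72 and 60, and the part of that in these detections was not tested.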

How the results depend on the processing

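In the deposited values 4 miRNAs passed in the pooled comparison, all with the same sign in both lines, and 19 differed between lines. These counts, in that order for pooled, same sign and difference, were 1, 1 and 10 with median scaling, 1, 1 and 12 with quantile normalization, 9, 9 and 12 over the 22 miRNAs detected in every sample, and 2, 2 and 37 in the 6 samples that follow their files. The difference count was 9 with no filter. With no common floor or robust eBayes, 0 passed pooled and 0 with the same sign (11 at an unadjusted p under 0.05 in both, limma). Without a line term 0 passed (10 unadjusted). A fold of 2 with an unadjusted p left 2 (miR-155 and miR-210). With 4 group means 19 passed and 12 shared a sign, and 23 and 16 when scaling was also left out, a pairing of choices made after seeing the data. The replicate block gave 0 pooled calls (9 unadjusted), 0 with the same sign and 6 differences. The crossed block in Star, added after seeing the data, gave 0 (11 unadjusted). On scanner files 0 differences passed (8 unadjusted), and 0 after normexp (2 unadjusted). With slide as a block the counts were 7, 7 and 30, and on slide 1 alone 7, 7 and 32. The 6 samples that follow their files and slide 1 alone hold the same samples, with 1 Stylo sample per group. The causes were not tested. The number of miRNAs tested was not the same in all settings, so these counts have unlike bases. It was 56 in the deposited values of all 8 samples and 454 with no filter. In the 6 samples that follow their files it was 68, on the 7 scanner arrays 46 and on slide 1 alone 50.

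Leaving out each sample in turn gave 0 to 4 pooled calls, 0 to 4 with the same sign and 15 to 26 differences. Pooled changes that turned sign in this way ranged from −0.089 to 0.11 for let-7e, −0.23 to 0.22 for miR-27b, −0.62 to 0.29 for miR-92a, −0.73 to 0.56 for miR-365, −0.054 to 0.46 for miR-93, −0.15 to 0.65 for miR-16, −1.19 to 0.087 for miR-223, −0.063 to 0.67 for miR-25, −0.11 to 0.89 for miR-30d and −0.15 to 1.08 for miR-222.

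Other pooled changes turned sign as follows. Without scaling miR-92a was 0.12 and miR-365 was 0.26. With median scaling miR-15b was −0.0042, let-7e −0.18, miR-27b −0.12 and let-7b −0.091. In the 6 samples miR-23b was −0.0087, miR-23a −0.031, miR-27b −0.22, miR-92a 0.38 and miR-30d −0.068. On scanner files miR-23b was −0.38, let-7e −0.38, miR-23a −0.027, miR-27b −0.70, miR-92a 0.34, miR-30d −0.16, miR-222 −0.071, miR-99b −0.12, miR-34a −0.0019, miR-378 −0.027, miR-494 0.051, let-7b −0.32 and miR-191 −0.011. With slide as a block, and on slide 1, miR-23b was −0.049, miR-23a −0.071, miR-27b −0.37, miR-93 −0.13 and miR-30d −0.040 in both, miR-92a 0.087 and 0.15, and miR-99b −0.083 and −0.057. MiR-191 was −0.0063 with the block. After normexp miR-23b was −0.27, miR-15b −0.068, miR-31 −0.14, let-7e −0.20, miR-23a −0.12, miR-27b −0.40, miR-93 −0.038, miR-25 −0.052, miR-16 −0.079, miR-30d −0.13 and miR-222 −0.22. In the same setting miR-99b was −0.098, miR-103 −0.15, miR-107 −0.082, miR-34a −0.043, miR-210 −0.059, miR-21 −0.062, miR-378 −0.20, miR-494 0.016, let-7b −0.24, let-7g −0.078 and miR-191 −0.15. Signal limits all of this: 4.19% to 8.78% of 18160 spots per array were well above background.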
